A study of Mus musculus with 33 samples.

Results

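The genes described here are 38 markers of the glutamatergic projection neurons of the mouse cerebral cortex, out of 38393 features in the deposited count tables. They were taken by gene symbol, and 38 of 38 were found. For the description they were sorted by where in the cortex they are best known: 8 upper layer genes (layers 2 to 4), 12 deep layer genes (layers 5 and 6 and the subplate), 11 genes shared by several layers, and 7 genes of glutamatergic synapses and signalling. Polyadenylated RNA was sequenced from male C57Bl/6J mice aged 1 month, in 33 libraries that the submitters call biological replicates. Experiment 2 holds cortex and cerebellum of 4 wild-type (WT) libraries each, and cortex and cerebellum of 3 libraries each of Mir7a1-/-, Mir7b-/- mice (Mir7DKO), in which these microRNA genes are deleted. Experiment 1B holds cerebella of 4 WT, 4 Mir7DKO and 4 Cyrano-/- (CyrKO) libraries, and experiment 1A cerebella of 3 WT libraries and 4 CyrMut libraries, from mice whose long noncoding RNA Cyrano carries a changed site for miR-7. Every group is whole tissue of mice with a germline genotype, and the labels name no Cre line, transgene or pooling.

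Projection neurons send axons out of their cortical area. Upper layer neurons mostly connect areas of the cortex, while deep layer neurons mostly reach the thalamus, brainstem and spinal cord. Their identities are set by transcription factors that act in part against each other, such as Fezf2 and Bcl11b in neurons that project below the cortex, Tbr1 in layer 6 neurons that project to the thalamus, and Cux1, Cux2 and the POU factors Pou3f2 and Pou3f3 in the upper layers. MicroRNAs such as miR-7 repress messenger RNAs by pairing of their seed, the bases near the 5′ end, with short matches in 3′ UTRs.

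The microRNAs at issue are printed because the matches in the members are defined by their seed. The mature sequences are from RefSeq (GRCm38.p6), 5′ to 3′, with bases 2 to 8 in capitals. MiR-7a-5p is made from Mir7-1 (chr13:58392841-58392863, minus strand) and from Mir7-2 (chr7:78888295-78888317, plus strand), and miR-7b-5p from Mir7b (chr17:56243017-56243040, plus strand). Both have the same seed.
miR-7a-5p: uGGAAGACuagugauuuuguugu
miR-7b-5p: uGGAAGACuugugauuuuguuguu

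The longest annotated 3′ UTR of each gene was searched on the sense strand for GTCTTCC (pairing with bases 2 to 8), TCTTCCA (bases 2 to 7 followed by an A) and GTCTTCCA (both). A match was present in 8 of 38 members (21.1%) and in 3837 of the 13046 genes tested in cortex that have an annotated 3′ UTR (29.4%). The median 3′ UTR was 1723 bases in the members and 1469 bases in the genes tested. The matches below are from transcripts of GENCODE M21 (GRCm38), all in 3′ UTR exons, with the match in capitals. The coordinates are those of the capitals.
Ptk2b, chr14:66153967-66153974, minus strand: ttgcctttggttattgGTCTTCCAgg
Ctgf, chr10:24597304-24597310, plus strand: ttgctgtttctccttctGTCTTCCtt
Pou3f3, chr1:42699217-42699223, plus strand: gacaccccccccctcttTCTTCCAct
Pou3f3, chr1:42699226-42699232, plus strand: cccctctttcttccactTCTTCCAaa
Cux1, chr5:136272022-136272028, minus strand: gtaagacagcctttgacTCTTCCAag
Cux2, chr5:121859265-121859271, minus strand: ctaacacagaagcaatcTCTTCCAgc
Lmo3, chr6:138364679-138364685, minus strand: cctcctgatcactgccaTCTTCCAac
Hpca, chr4:129112118-129112124, minus strand: acccacagtcaggaggaTCTTCCAca
Camk2a has 2 matches that are not printed here. Ptk2b held the only 8-base match among the members.

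Depth ran from 6.89 to 10.46 M counts per library in cortex, from 9.77 to 12.86 M in cerebellum of experiment 2, from 8.15 to 14.92 M in experiment 1B and from 12.58 to 24.94 M in experiment 1A. Cyrano (1700020I14Rik) was at 74.7 to 88.3 CPM (counts scaled to a common library total) in the CyrKO libraries and at 1579 to 1970.1 CPM in their WT libraries. The Mir7DKO genotype could not be checked in the same way, since these libraries do not measure mature miR-7. Mir7b had 0 counts over the WT cortex libraries and 2 over the Mir7DKO cortex libraries, and Mir7-1 had 1 count in each group. In cerebellum Mir7b had 0 counts over the WT libraries of both experiments but 12 over the Mir7DKO libraries of experiment 2 (0.0806 to 0.651 CPM) and 17 over those of experiment 1B (0.201 to 0.506 CPM), so that each Mir7DKO cerebellum library and no WT library held reads of this gene, which the labels give as deleted. Mir7-1 had 5 counts in WT and 8 in Mir7DKO in experiment 2, and 9 and 11 in experiment 1B. These reads do not check the genotype, and Mir7DKO stands throughout for the libraries labelled so. The tissue labels were checked by markers: 8 granule cell genes of the cerebellum summed to 73.6 to 90.1 CPM in WT cortex and to 7078 to 7376 CPM in WT cerebellum. Cortex libraries differed in RNA of neighbouring structures. A set of 10 striatal markers summed to 624 CPM in WT replicate 1 and to 1076 to 1637 CPM in the other WT libraries, and the choroid plexus gene Ttr was at 48.8, 3.31, 286 and 317 CPM in WT replicates 1 to 4 and at 1.94 to 3.90 CPM in Mir7DKO, where it was lower (edgeR, log2 change -5.78, SE 1.01, adjusted p = 0.0413).

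In wild-type cortex 4 synaptic genes had the highest levels of the 38. On a scale of CPM per kb of merged exons, the level of Nrgn (neurogranin, a calmodulin-binding protein of dendritic spines, ENSMUSG00000053310, chr9:37544492-37552904) was 760.2 ± 18.0 (SD, n = 4). Next came the kinase subunit Camk2a at 464 ± 23.2, the vesicular glutamate transporter Slc17a7 at 222 ± 9.06, the calcium sensor Hpca at 154 ± 16.3 and the transcription factor Mef2c at 73.3 ± 7.18. The libraries of these 5 genes did not overlap with those of the gene next in order. Further down, Lmo4 (63.3 ± 1.52), Lamp5 (63.2 ± 6.14), Nptx1 (62.4 ± 3.54) and Ptk2b (59.9 ± 0.646) could not be put in order, and in all 9 of the 37 pairs of neighbours were separate.

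Among the layer genes, the highest level per kb in the upper set was that of Lamp5 and the lowest that of the Wnt enhancer Rspo1, at 4.08 ± 0.723. The deep set ran from Tbr1, at 32.7 ± 2.72, to the neurotensin receptor Ntsr1, at 2.84 ± 0.490, and Foxp2, at 2.18 ± 0.518. The spread between the 4 WT libraries was smallest for the kinase Ptk2b, with a coefficient of variation of 1.08%, and largest for Foxp2 (23.8%), Bcl11b (21.1%) and Fezf2 (19.5%). The median over the members was 7.16%, against 6.53% for the genes tested within the members' range of level. With the longest transcript in place of merged exons, 5 members moved by more than 3 places in the order.

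The comparison of Mir7DKO with WT cortex asks whether loss of these miR-7 genes alters the RNA of projection neurons. The genotype does not name Mir7-2, which also gives miR-7a-5p, and how much miR-7 remained was not measured. None of the 38 members passed the test: 0 were higher and 0 lower (edgeR quasi-likelihood test with Benjamini-Hochberg adjustment over all genes, threshold 0.05). DESeq2 likewise called 0 members, and in the authors' deposited table of this comparison each of the 38 members had an adjusted p of 0.9999. The background was 6 of 13754 genes, or 0.0436%. At an unadjusted p under 0.05 there was 1 member, Pou3f2, where 5.77% of all genes tested were below that value. The log2 changes of the 38 members ran from -0.19 to 0.17 with a median of -0.01, beside a median of 0.00 over all genes tested, and 16 were above 0 and 22 below.

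The standard error (SE) of a log2 change ran from 0.0431 for Ptk2b to 0.162 for Rspo1, and no 95% interval reached below -0.44 or above 0.41. For 33 of the 38 genes the interval reached neither a level 25% above WT nor a level 20% below it. The 5 others were Fezf2, Foxp2 and Bcl11b, the genes with the largest spread between WT libraries, and the low genes Rspo1 and Pou3f1.

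**Figure D1:**
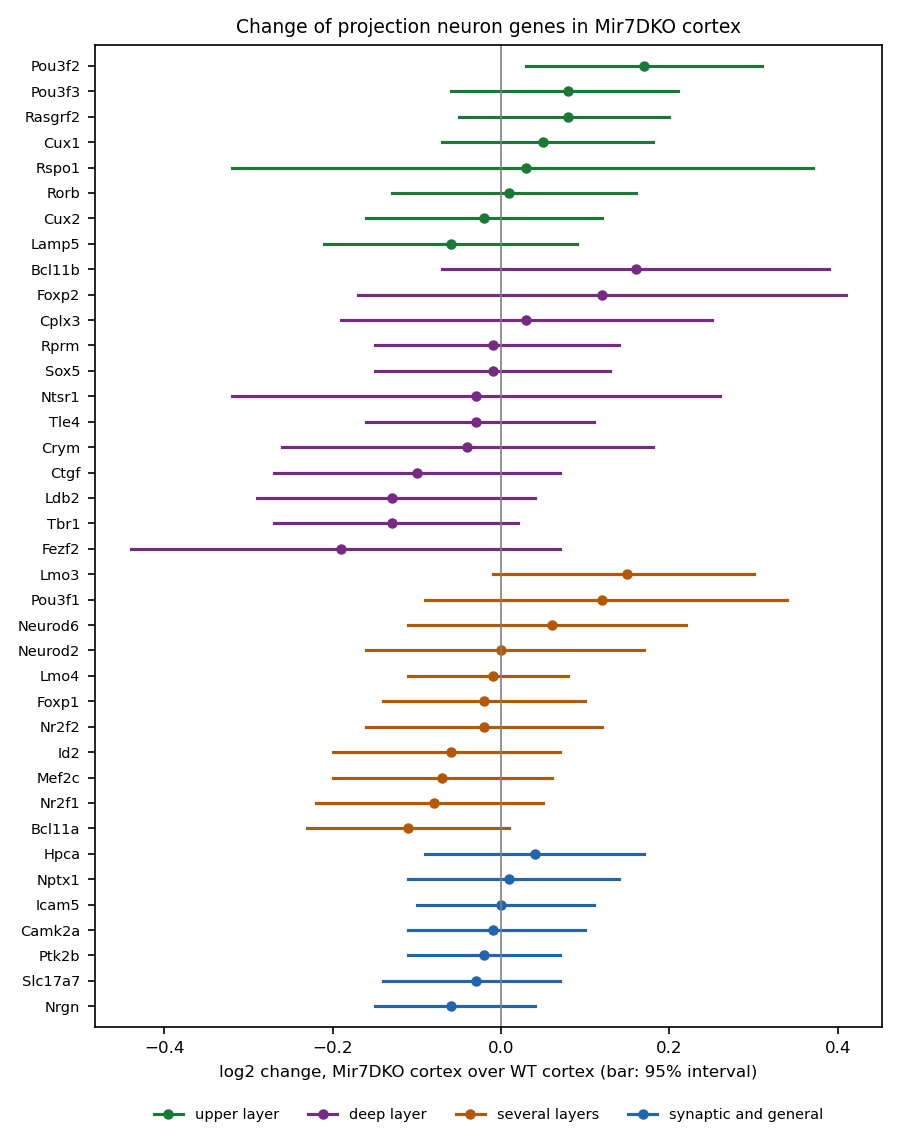
Each point is the log2 change of a gene in Mir7DKO cortex (n = 3) over WT cortex (n = 4) with its 95% interval as a bar, coloured by class. The changes lie between -0.19 and 0.17, and the interval of Pou3f2 (0.03 to 0.31) is the only one that does not include 0.

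The upper layer genes had a median log2 change of 0.04, with 6 of 8 above 0. Pou3f2, a POU-domain transcription factor (ENSMUSG00000095139, chr4:22482780-22488366), was at 56.3, 55.0, 52.5 and 54.6 CPM in WT and at 67.7, 56.9 and 60.3 CPM in Mir7DKO. Each Mir7DKO library was above each WT library, though replicate 2 exceeded the highest WT library by little. The log2 change was 0.17 (SE 0.0669) and did not pass the test (edgeR, adjusted p = 0.849). Pou3f2 was the only 1 of 38 members whose groups did not overlap, where 6.99% of all genes tested did not overlap.

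The related factor Pou3f3 was at 63.5, 65.3, 58.9 and 59.6 CPM in WT and at 68.8, 63.4 and 63.7 CPM in Mir7DKO. Its groups overlapped. Rasgrf2, an exchange factor for Ras and Rac, was at 254, 205, 245 and 239.8 CPM in WT and at 252, 246 and 249 CPM in Mir7DKO, so that the Mir7DKO libraries lay inside the WT range.

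The homeodomain factors Cux1 and Cux2, the usual markers of layers 2 to 4, gave log2 changes of 0.05 (SE 0.0592) and -0.02 (SE 0.0660). Cux2 was at 180.1, 149.7, 169 and 152 CPM in WT and at 168, 148 and 168 CPM in Mir7DKO. The nuclear receptor Rorb, a layer 4 marker, had a change of 0.01 (SE 0.0677), the membrane protein gene Lamp5 one of -0.06 (SE 0.0725), and Rspo1 one of 0.03 (SE 0.162). Rspo1 was the least abundant of the upper genes, at 6.39 to 9.75 CPM.

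The deep layer genes had a median log2 change of -0.03, with 3 of 12 above 0. Fezf2, a zinc-finger factor of neurons that project below the cortex (ENSMUSG00000021743, chr14:12342094-12348189), was at 35.6, 24.8, 25.1 and 24.7 CPM in WT and at 23.8, 21.3 and 27.6 CPM in Mir7DKO. WT replicate 1 stood above the other 6 libraries. The log2 change was -0.19 (SE 0.122, adjusted p = 0.915), and without WT replicate 1 it was -0.04.

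Tbr1, the T-box factor of layer 6 (ENSMUSG00000035033, chr2:61802930-61814114), was at 201, 169.6, 177 and 169 CPM in WT and at 169, 146 and 178 CPM in Mir7DKO. The groups overlapped, and the change was -0.13 (SE 0.0704, adjusted p = 0.900). Bcl11b, a zinc-finger factor of layer 5 neurons that is also abundant in the striatum (ENSMUSG00000048251, chr12:107910403-108003602), was at 91.5, 155, 122 and 133 CPM in WT and at 127, 144 and 148 CPM in Mir7DKO. The lowest and the highest of these 7 values were both WT.

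Of the others in the deep set, the cofactor Ldb2 had a log2 change of -0.13 (SE 0.0796) and Ctgf, a matricellular protein of layer 6b, one of -0.10 (SE 0.0809). Foxp2, a forkhead factor of layer 6, was at 31.5, 47.1, 27.5 and 36.4 CPM in WT and at 30.2, 45.0 and 39.3 CPM in Mir7DKO, with a change of 0.12 (SE 0.138). The remaining 6 lay between -0.04 and 0.03: Crym (a thyroid hormone-binding protein), Ntsr1, the corepressor Tle4, the HMG-box factor Sox5, Rprm and the subplate complexin Cplx3. All 12 genes of the deep set overlapped between the groups.

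**Figure D2:**
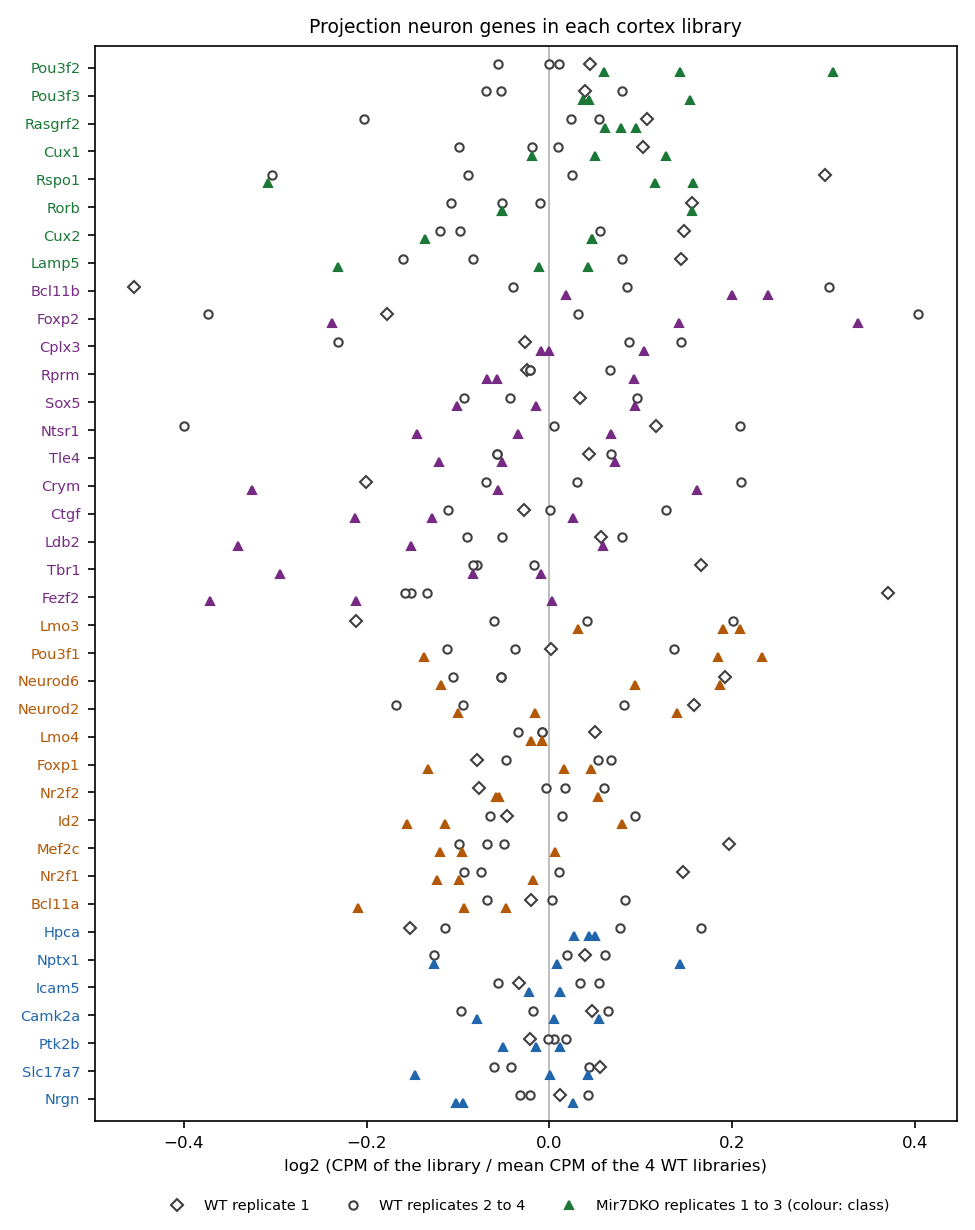
Each row is a gene and each symbol a cortex library, placed by the log2 ratio of its CPM to the mean of the 4 WT libraries, with WT replicate 1 as diamonds, the other WT libraries as circles and Mir7DKO as triangles. Mir7DKO and WT symbols intermix in every row except Pou3f2, and WT replicate 1 lies far out for Fezf2, Mef2c, Bcl11b and Rspo1.

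The genes of several layers had a median of -0.02, with 4 of 11 above 0. Mef2c, a MADS-box factor of maturing excitatory neurons, was at 1319, 1075, 1098 and 1112 CPM in WT and at 1059, 1077 and 1156 CPM in Mir7DKO, and again WT replicate 1 was the highest of the 7. Its log2 change was -0.07 (SE 0.0609), and 0.00 (SE 0.0461) without that library. Bcl11a, a relative of Bcl11b, was at 122, 118, 131 and 124 CPM in WT and at 116, 107 and 119.7 CPM in Mir7DKO, a change of -0.11 (SE 0.0568, adjusted p = 0.878) with overlap.

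Lmo3, a LIM-only cofactor with a miR-7 match, was at 136, 181, 162 and 151 CPM in WT and at 161, 182 and 179.6 CPM in Mir7DKO, a change of 0.15 (SE 0.0737, adjusted p = 0.871). The helix-loop-helix factors Neurod2 and Neurod6 had changes of 0.00 (SE 0.0786) and 0.06 (SE 0.0797), and the nuclear receptors Nr2f1 and Nr2f2, which pattern cortical areas, had changes of -0.08 (SE 0.0648) and -0.02 (SE 0.0669). Foxp1, Lmo4, the helix-loop-helix inhibitor Id2 and Pou3f1 lay between -0.06 and 0.12. None of the 11 had groups that did not overlap.

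The log2 changes of the synaptic genes had the narrowest range of the 4 classes and ran from -0.06 for Nrgn (SE 0.0456) to 0.04 for Hpca (SE 0.0626), with 3 of 7 above 0. Nrgn was at 1113, 1088, 1137 and 1079.6 CPM in WT and at 1124, 1029 and 1034 CPM in Mir7DKO, and Slc17a7 at 1242, 1146, 1232 and 1161 CPM in WT and at 1231, 1079 and 1196 CPM in Mir7DKO. In both genes, Mir7DKO replicate 2 was the lowest library and Mir7DKO replicate 1 lay within the WT range. The adhesion molecule of forebrain neurons Icam5 was nearly constant, at 125 to 135 CPM in WT and 128 to 131 CPM in Mir7DKO.

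Put side by side per library, the classes did not separate the genotypes. The median log2 ratio of the upper genes to their WT mean was 0.13, -0.08, 0.03 and -0.06 in the WT libraries and 0.08, 0.05 and 0.05 in Mir7DKO. The same for the deep genes was 0.01, 0.03, -0.04 and -0.01 in WT and -0.10, -0.08 and 0.03 in Mir7DKO. In both classes the Mir7DKO values and the WT values overlapped.

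Further genes of the same neurons, outside the 38, gave like counts. Of 10 other upper layer genes 0 passed in either direction (median log2 change 0.02, 6 above 0), of 14 other deep layer genes 0 passed (median -0.06, 3 above 0), and of 12 other glutamatergic genes 0 passed (median 0.02, 8 above 0).

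The members with a miR-7 match gave no change past the test. Ptk2b, with the 8-base match printed above, was at 437, 445, 449 and 443 CPM in WT and at 428, 439 and 447 CPM in Mir7DKO. The ranges overlapped, and the log2 change was -0.02 (SE 0.0431, interval -0.11 to 0.07). The median change was 0.02 over the 8 members with a match, of which 4 were above 0, and -0.02 over the members without, beside 0.01 and 0.00 over all genes tested with and without a match. A match is a description of the sequence and not evidence of regulation.

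Levels of the striatal markers moved with some members across the cortex libraries. The 10 markers summed to 624, 1637, 1076 and 1424 CPM in WT and to 986, 1564 and 1314 CPM in Mir7DKO, with none at 0 in either group. Their log2 changes were above 0 for 10 of 10 (median 0.14), and 0 passed. Bcl11b, Lmo3 and Hpca were lowest in WT replicate 1, where the striatal sum was lowest. Bcl11b, Foxp2 and Hpca were highest in WT replicate 2, where that sum was highest. Foxp2, however, was lowest in WT replicate 3 (27.5 CPM), and Lmo3 was highest in Mir7DKO replicate 2 (182 CPM). These members were named after their values were seen. Bcl11b and Foxp2 are themselves expressed in striatal neurons.

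With the striatal sum as a covariate, 0 of 38 members passed, and the log2 change of Bcl11b was 0.07 in place of 0.16, that of Foxp2 0.02 in place of 0.12, that of Fezf2 -0.08 in place of -0.19 and that of Pou3f2 0.19 in place of 0.17. This covariate was added after the data were seen. Without WT replicate 1 the change of Bcl11b was 0.03 (SE 0.0724). Neither fit is a test of the dissection, whose part in these values was not tested.

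**Figure D3:**
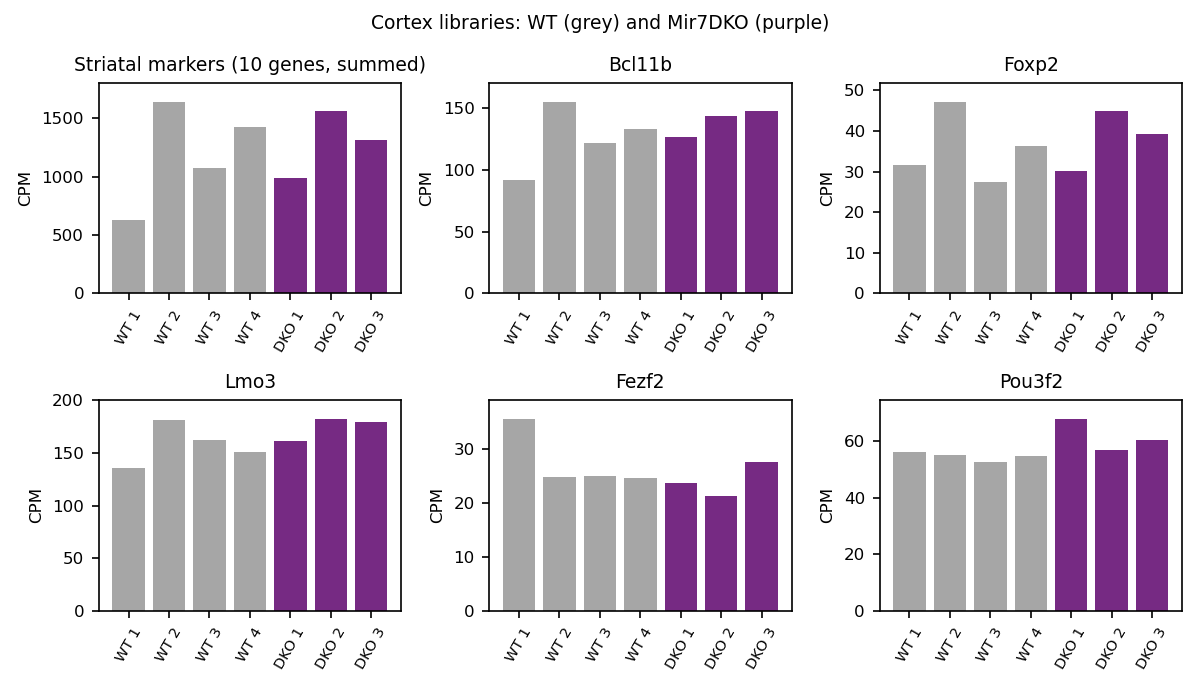
Bars give CPM in each cortex library for the sum of 10 striatal markers and for 5 members, with WT in grey and Mir7DKO (DKO on the axis) in purple. WT replicate 1 has the lowest striatal sum (624), the lowest Bcl11b (91.5) and the highest Fezf2 (35.6), while Pou3f2 is higher in each Mir7DKO library than in any WT library.

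Wild-type cortex and cerebellum of experiment 2 were compared to see how far each gene marks the cortex. All 38 members differed (edgeR, adjusted p under the 0.05 threshold): 34 were higher in cortex and 4 lower. Most genes differed between these tissues, since 74.7% of 14001 genes passed (76.2% at an unadjusted p under 0.05), 37.4% higher and 37.3% lower in cortex. The libraries of the tissues did not overlap for 38 of 38 members, against 68.3% of all genes. By size, 33 of 38 were at least 2-fold higher, against a background of 15.1%, 1 was at least 2-fold lower, against 9.24%, and 18 were at least 16-fold higher, against 2.45%. The median log2 difference was 3.42 for the members and -0.01 for all genes tested. In whole tissue, fewer cells of a type and less RNA per cell cannot be told apart.

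A gene absent from the cerebellum could enter this test only through its cortical counts, so it had to differ. By the filter on the cerebellar libraries alone 27 members passed, of which 23 were higher in cortex, 22 of them at least 2-fold, and 4 lower. Of the 13187 genes that passed it, 34.4% were higher and 11.1% at least 2-fold higher. The members that did not pass it are all among those at least 16-fold higher and those without overlap. Both of these shares were thus in part fixed by the filter.

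Of the 12 deep layer genes 12 were higher in cortex. Of these, 7 did not pass the filter on the cerebellar libraries (Fezf2, Ntsr1, Crym, Tbr1, Cplx3, Bcl11b and Rprm) and had to differ, and the log2 differences of the 5 others ran from 0.78 to 4.69. Fezf2 had 0 counts over the 4 cerebellar libraries and 813 over the 4 cortical ones, so that it was at least 428-fold higher in cortex (against a floor of 3 counts over the group). Crym had 1 and 1025 counts, a ratio of 1618 (95% interval from counting error alone 289.7 to 63954), and Ntsr1 had 1 and 327 counts, a ratio of 516 (92.0 to 20445). Ratios this close to a count of 0 are imprecise, as the intervals show.

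Tbr1 was at 0.60, 1.13, 0.637 and 0.655 CPM in cerebellum and at 206, 173, 181 and 172 CPM in cortex, a log2 difference of 7.91 (SE 0.115). Bcl11b was at 1.30, 0.851, 1.59 and 1.64 CPM in cerebellum and at 93.8, 159, 125 and 136 CPM in cortex. The gap between the tissues was far wider than the spread within either. The deep genes with the smallest differences were Sox5 (0.78, SE 0.0627), Foxp2 (1.27, SE 0.124) and Tle4 (1.52, SE 0.0784). Foxp2 is also a Purkinje cell gene.

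Of the 8 upper layer genes 7 were higher in cortex. Lamp5 and Rspo1 did not pass the cerebellar filter, and of the 6 others 5 were higher and 1 lower, with log2 differences from -0.48 to 5.30. Whether the classes differ from each other was not tested. Lamp5 was at 1.40, 1.04, 1.35 and 0.737 CPM in cerebellum and at 209.7, 169, 200.2 and 178 CPM in cortex, a log2 difference of 7.38 (SE 0.116). Rasgrf2 (5.30, SE 0.0865) and Rspo1 (5.26, SE 0.301) followed. The transcription factors of this class were all well expressed in cerebellum: Cux2 differed by 1.47 (SE 0.0623), Pou3f2 by 1.41 (SE 0.0655), Pou3f3 by 1.51 (SE 0.0673) and Rorb by 2.23 (SE 0.0650). Cux1 was lower in cortex, at 115, 99.6, 107 and 105 CPM against 143, 142, 159 and 148 CPM in cerebellum, a log2 difference of -0.48 (SE 0.0513, adjusted p = 1.6e-08).

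Among the genes of several layers 9 of 11 were higher in cortex and 2 lower, and 1 of the 11, Pou3f1, did not pass the cerebellar filter. Lmo3 (5.82, SE 0.120) and Mef2c (4.29, SE 0.0625) differed most. Neurod2 was lower in cortex by -0.72 (SE 0.0611), at 74.0, 70.0, 61.9 and 58.6 CPM against 112, 104, 111 and 109 CPM, while its relative Neurod6 was higher by 3.22 (SE 0.0881). Id2 was lower by -0.31 (SE 0.0517, adjusted p = 1.3e-05), the smallest of the 38 differences.

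Of the synaptic genes 6 of 7 were higher in cortex, among them Icam5, which did not pass the cerebellar filter. Nrgn was at 2.10, 1.42, 1.11 and 1.06 CPM in cerebellum and at 1141, 1112, 1163 and 1100.1 CPM in cortex, a log2 difference of 9.65 (SE 0.0817, adjusted p = 2.4e-28). Icam5 (8.34, SE 0.126) and Ptk2b (7.12, SE 0.0701) came next. Camk2a differed by 5.14 (SE 0.0511) though the cerebellum held 97.6 to 104 CPM of it, and the glutamate transporter Slc17a7, which granule cells also use, differed by 1.26 (SE 0.0395).

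Nptx1, a secreted pentraxin that gathers glutamate receptors (ENSMUSG00000025582, chr11:119538719-119547753), was lower in cortex, at 343, 337, 347 and 304 CPM against 767, 795, 744 and 799 CPM in cerebellum. The tissues did not overlap, and the log2 difference was -1.22 (SE 0.0440, adjusted p = 2.1e-17).

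**Figure D4:**
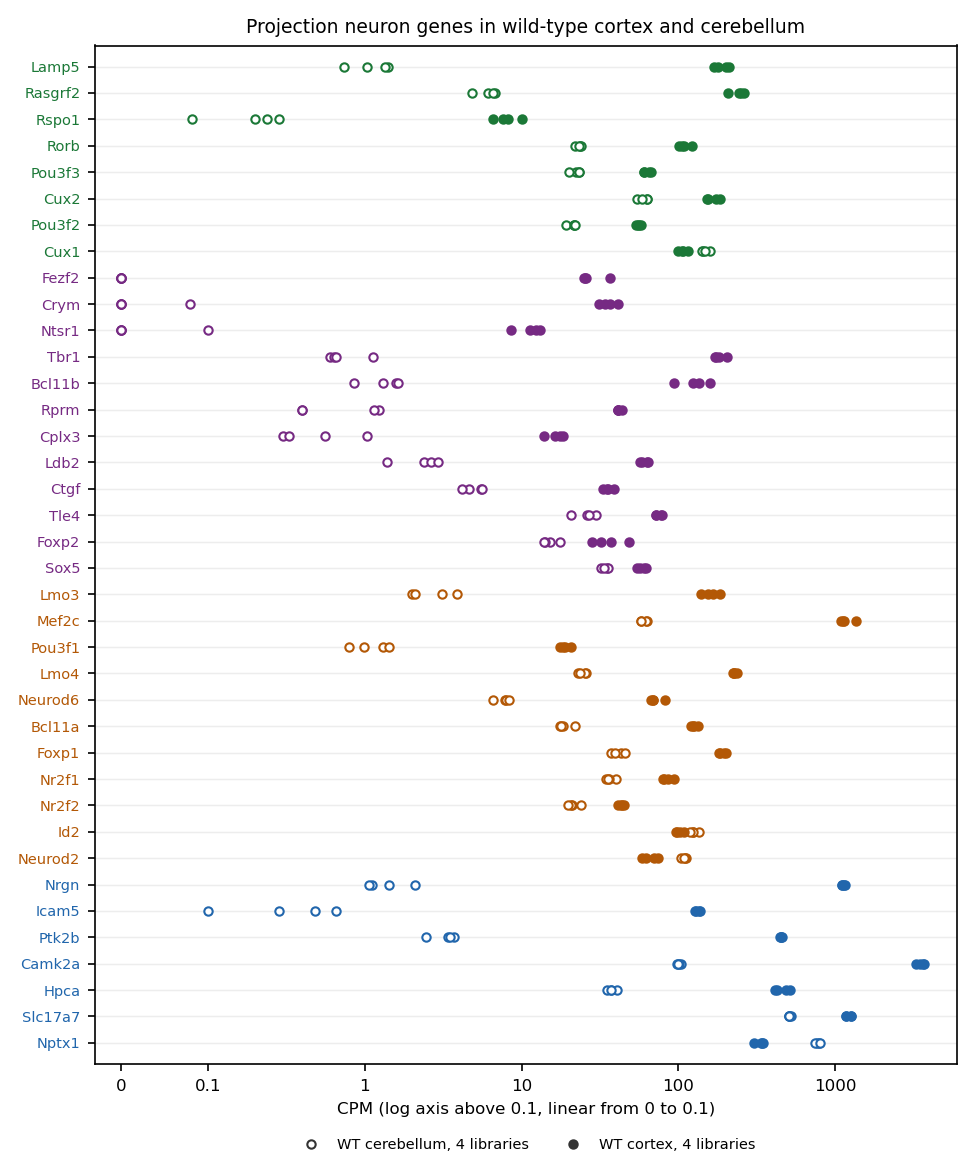
Each row is a gene with its CPM in the 4 WT cerebellum libraries (open) and the 4 WT cortex libraries (filled) of experiment 2, on an axis that is logarithmic above 0.1 CPM. CPM is not corrected for gene length, so rows are read across and not against each other. Fezf2 is at 0 in every cerebellar library, and the open symbols lie to the right of the filled ones only for Cux1, Id2, Neurod2 and Nptx1.

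Other lists of cortical genes went both ways. Of the 10 other upper layer genes 7 were higher and 2 lower in cortex, with a median log2 difference of 2.37. Of the 14 other deep layer genes 9 were higher and 3 lower, with a median of 0.76, and of the 12 other glutamatergic genes 10 were higher and 2 lower, with a median of 4.20. Over all genes tested, 37.4% were higher and 37.3% lower. Lhx2, Otx1, Hs3st4, Emx1, Emx2, Ddn and Kcnv1 of these lists had too few counts to be tested in cerebellum of experiment 2. They entered through their cortical counts and had to be higher. Examples among the others were the deep layer gene Tshz2 (log2 difference 3.29, SE 0.127) and, in the other direction, the calcium-binding protein Calb1 (-2.74, SE 0.0440), which Purkinje cells also express, and Etv1 (-2.67, SE 0.0807).

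The WT cerebellum was measured in 3 experiments, which were normalised apart, so comparisons were made within an experiment. Among the members of higher level, the WT mean of Nptx1 lay between 793 and 854 CPM, that of Slc17a7 between 522 and 573, that of Cux1 between 151 and 158, that of Id2 between 123 and 131, that of Neurod2 between 111 and 121 and that of Camk2a between 101 and 109. Among genes of lower level, Foxp2 lay between 15.2 and 15.5 CPM and Nrgn between 1.46 and 1.91 CPM. Others of lower level spread more widely, with Ctgf between 5.07 and 7.77 CPM, Rasgrf2 between 3.86 and 6.20, Lmo3 between 1.75 and 2.83, Bcl11b between 0.827 and 1.56, Tbr1 between 0.773 and 1.26, Lamp5 between 0.628 and 1.16 and Rspo1 between 0.0442 and 0.206. Fezf2, Crym, Ntsr1, Rspo1, Icam5 and Cplx3 had too few counts to be tested in any of the 4 mutant comparisons of the cerebellum, and Lamp5 too few in both of experiment 1B.

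In Mir7DKO cerebellum of experiment 2, 32 of 38 members passed the filter and 0 passed the test (edgeR; DESeq2 also 0; background 0.198% of 14146 genes). At an unadjusted p under 0.05 there was 1 (background 6.78%), the layer 6b gene Ctgf (ENSMUSG00000019997, chr10:24595442-24598683). It was at 4.70, 5.61, 5.70 and 4.26 CPM in WT and at 5.86, 6.64 and 6.69 CPM in Mir7DKO. The groups did not overlap (1 member, background 6.70%), and the log2 change was 0.34 (SE 0.161, adjusted p = 0.735). The median over the members tested was 0.00.

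Choroid plexus genes differed between the same groups. The 10 choroid plexus markers summed to 19.9, 26.3, 23.6 and 21.2 CPM in WT and to 710.4, 449 and 18.0 CPM in Mir7DKO, with no marker at 0 over a group, and 4 of the 6 tested were higher (edgeR), among them the transthyretin gene Ttr (log2 change 6.01, SE 0.804, adjusted p = 9.1e-04) and Kl (3.66, SE 0.549, adjusted p = 0.00399). In the Mir7DKO libraries, in the same order, Ctgf was at 5.86, 6.64 and 6.69 CPM. The part of choroid plexus RNA in the members' values was not tested.

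In Mir7DKO cerebellum of experiment 1B, 31 members passed the filter and 0 the test (edgeR; DESeq2 also 0; background 0.00713% of 14031 genes), with 4 at an unadjusted p under 0.05 (background 3.68%). Replicate 2 stood apart. Nrgn was at 2.58, 1.28, 2.20 and 1.59 CPM in WT and at 1.59, 26.7, 1.44 and 1.47 CPM in Mir7DKO. Rasgrf2 was at 4.55, 4.48, 3.14 and 4.54 CPM in WT and at 3.81, 14.2, 3.61 and 4.00 CPM in Mir7DKO. The same library was the highest of the 8 for Bcl11b (5.02 CPM), Ldb2 (5.62 CPM), Ptk2b (6.42 CPM), Foxp2 (23.9 CPM) and Camk2a (134 CPM), while Fezf2 and Crym had 0 counts in it and Tbr1 (1.20 CPM), Lamp5 (0.335 CPM) and Icam5 (0.535 CPM) lay within the range of the other libraries.

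The log2 change of Nrgn in that comparison was 2.08 (SE 0.925, adjusted p = 1.00) with the library and -0.36 (SE 0.281) without it. That of Rasgrf2 was 0.65 (SE 0.416) with it and -0.15 (SE 0.179) without it, and that of Bcl11b 0.77 (SE 0.387) and 0.19 (SE 0.266). Some genes of other brain regions, named here after their values were seen, were high in the same library. The thalamic factor Tcf7l2 was at 40.2 CPM in that library and at 6.72 to 9.64 CPM in the other 7 libraries, the glutamate transporter of subcortical neurons Slc17a6 at 39.8 against 11.0 to 19.1 CPM, the factor Meis2 at 14.1 against 2.29 to 5.44 CPM and the neuropeptide Sst at 4.75 against 0.361 to 1.26 CPM. The sum of the 7 thalamus and midbrain markers, which include Tcf7l2 and Meis2, was 151 CPM there and 114 to 137 CPM in the other libraries of the comparison. The rest of these markers did not all follow. Pou4f1 was highest there, at 0.268 against 0 to 0.213 CPM, but Prkcd was lowest, at 64.9 against 69.5 to 89.4 CPM. Lef1, Rgs16 and Otx2 lay within the range of the other libraries. The part of genes of other brain regions in the result was not tested.

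The 4 members at an unadjusted p under 0.05 were Nrgn, Foxp2 (0.31, SE 0.120, and 0.16, SE 0.0902, without replicate 2) and the upper layer factors Cux1 and Pou3f2. Cux1 was at 154, 162, 168 and 149.9 CPM in WT and at 148, 147, 143 and 130.1 CPM in Mir7DKO, a log2 change of -0.16 (SE 0.0598, adjusted p = 1.00). Pou3f2 was at 17.1, 19.7, 15.8 and 17.2 CPM in WT and at 17.8, 22.2, 21.7 and 21.2 CPM in Mir7DKO, a change of 0.25 (SE 0.0959, adjusted p = 1.00). Of the members tested, 3 had groups that did not overlap (Cux1, Foxp2 and Nr2f2), where 2.54% of all genes tested did not.

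In CyrKO cerebellum 31 members passed the filter and 0 the test (edgeR; DESeq2 also 0; background 0.0220% of 13664 genes), with 4 at an unadjusted p under 0.05 (background 7.35%). The CyrKO and Mir7DKO comparisons of experiment 1B use the same WT libraries. Pou3f1 was at 0.759, 0.854, 0.732 and 1.08 CPM in WT and at 1.24, 1.33, 1.49 and 1.31 CPM in CyrKO, a log2 change of 0.63 (SE 0.254, adjusted p = 0.677). Rasgrf2 was at 5.20, 5.22, 5.76 and 5.23 CPM in CyrKO, a change of 0.35 (SE 0.154, adjusted p = 0.677). These were the 2 members without overlap (background 4.05%), and the others at an unadjusted p under 0.05 were Foxp2 (0.24, SE 0.0984) and Tle4 (0.20, SE 0.0850). Nrgn was again high in replicate 2 alone, at 1.73, 7.07, 1.19 and 1.39 CPM, a change of 0.55 (SE 0.498) with that library and -0.43 (SE 0.302) without it. In that library Tcf7l2 was at 12.5 CPM (7.31 to 11.9 in the other 7), Slc17a6 at 9.01 CPM (11.0 to 21.3) and Sst at 1.84 CPM (0 to 1.25), and their part in the result was not tested.

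In CyrMut cerebellum 32 members passed the filter and 0 the test (edgeR; DESeq2 also 0; background 0.00673% of 14866 genes), with 3 at an unadjusted p under 0.05 (background 4.98%). Lmo3 was at 2.25, 1.27 and 1.97 CPM in WT and at 3.31, 2.60, 2.70 and 2.80 CPM in CyrMut, a log2 change of 0.66 (SE 0.219, adjusted p = 0.944). Bcl11b was at 0.661, 1.19 and 0.631 CPM in WT and at 1.20, 1.41, 1.42 and 1.68 CPM in CyrMut, a change of 0.73 (SE 0.276, adjusted p = 0.944). These 2 members had groups that did not overlap (background 5.39%), though for Bcl11b the highest WT library and the lowest CyrMut library nearly met. Rasgrf2 had a change of 0.48 (SE 0.164, adjusted p = 0.944) with overlap.

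**Figure D5:**
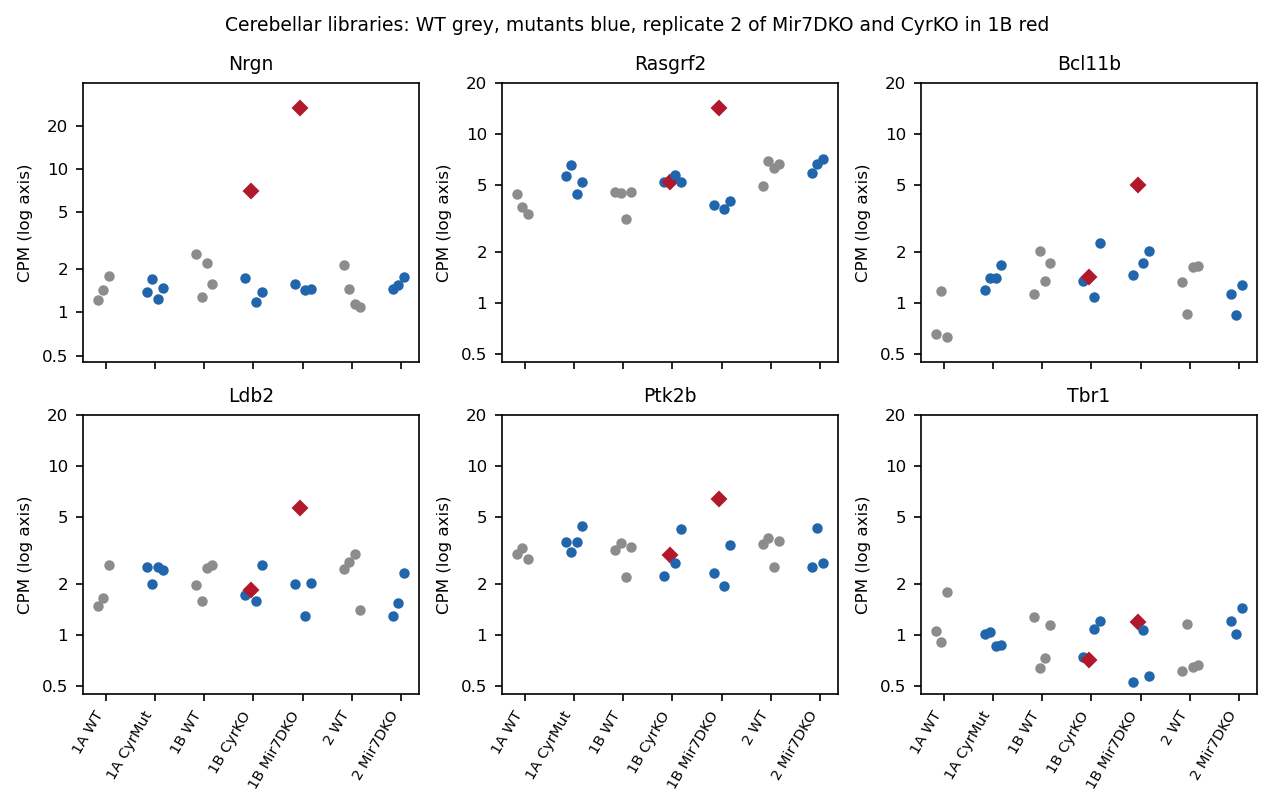
CPM of 6 members in every cerebellar library, on a log axis, by experiment and genotype, with replicate 2 of the Mir7DKO and CyrKO groups of experiment 1B as red diamonds. The Mir7DKO diamond is the highest symbol for Nrgn (26.7), Rasgrf2 (14.2), Bcl11b (5.02), Ldb2 (5.62) and Ptk2b (6.42) but not for Tbr1 (1.20), and the CyrKO diamond stands out for Nrgn (7.07) alone.

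Of the members well expressed in cerebellum, Nptx1, Slc17a7 and Neurod2 were close to WT in each mutant. For Nptx1 the log2 changes were -0.05 (SE 0.0473) and 0.00 (SE 0.0725) in Mir7DKO of experiments 2 and 1B, -0.07 (SE 0.0755) in CyrKO and -0.09 (SE 0.0566) in CyrMut. For Slc17a7 they were 0.04 (SE 0.0511), -0.03 (SE 0.0826), -0.15 (SE 0.0909) and -0.10 (SE 0.0829) in the same order. For Neurod2 they were 0.03 (SE 0.0575), 0.05 (SE 0.0747), -0.08 (SE 0.0787) and -0.06 (SE 0.0796). None of these passed. Cux1, also well expressed, had a mean of 142 CPM in Mir7DKO of experiment 1B against 158 CPM in WT, without overlap, and did not pass either. The changes of Id2 and Camk2a are not given here.

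Whether the Mir7DKO change differed between cortex and cerebellum was tested as an interaction in experiment 2. None of the 38 members passed (edgeR; DESeq2 also 0; background 0.155% of 14886 genes, smallest adjusted p of a member 0.931), and 3 were at an unadjusted p under 0.05 (background 4.92%). The difference of the log2 changes, cortex minus cerebellum, was -0.44 (SE 0.162) for Ctgf, -0.80 (SE 0.340) for Tbr1 and -0.21 (SE 0.0948) for Nr2f1. For Tbr1 the cerebellar part rests on few counts, since it was at 0.613 to 1.16 CPM in WT and 1.02 to 1.45 CPM in Mir7DKO cerebellum. For members at or near 0 in cerebellum, such as Fezf2, this test has no cerebellar value to work with. Of the 10 choroid plexus markers 8 passed this test (edgeR), with Ttr at -11.79 (SE 1.59, adjusted p = 0.00102). Their sum was 16.5 to 402 CPM in WT cortex and 16.9 to 19.9 CPM in Mir7DKO cortex, and its part in the members' values was not tested.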

How the data were processed

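Libraries were poly(A)-selected and stranded, per the labels' protocols. The deposited counts are whole reads per gene, in 5 tables made by the authors, per the file headers. Alignment and counting tools are known only from the submitters' processing notes, which list STAR 2.4, HTSeq 0.6.1p1 and DESeq2 1.10, with builds mm10 and GRCm38. The authors' log2 fold changes and adjusted p-values in these deposited tables were read only for the members' adjusted p-values. Use of strand in counting is not given in these sources, and exons of 8 members overlap another gene (Tmem54 for Hpca, Gm26592 for Icam5, and the like), so their counts are less certain. Cux2 has 2 features, of which the one with 0 counts in every library was left out. In the CyrMut table a shifted record of Myo15 was put back in place.

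Tests were run on the counts in edgeR 4.0.16 under R 4.3.3 (genes kept by filterByExpr, minimum count 10, TMM, quasi-likelihood F-test, Benjamini-Hochberg over all genes tested, threshold 0.05), with the libraries of each comparison and no covariate. WT cortex and cerebellum, and the interaction, used both tables of experiment 2. Levels are CPM on TMM-scaled totals. Intervals are 95%, and those of count ratios cover counting error only. Alternatives were DESeq2 1.42.0, RLE or library totals as scaling, no filter, each library left out, the replicate number as a block and, chosen after seeing the data, a striatal covariate. The steps were tested on simulated data.

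The members and lists were chosen with earlier results of these data known. The text describes the members and, of other lists, some of the genes past the threshold (at most 4 by p).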

Additional observations from a re-analysis of the deposited data

Results flagged for a closer look

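Among 187 sets of member values (1 member in 1 group of 4 libraries, mean of at least 1 CPM), 18 held a library that stood far from the other 3, by a Dixon gap test at the 95% level, where chance gives about 5%. In WT cortex, replicate 1 was high for Mef2c (1319 CPM against 1075 to 1112), Fezf2 (35.6 against 24.7 to 25.1) and Neurod6 (80.1 against 65.2 to 67.6), and replicate 2 was high for Rprm (42.7 against 40.1 to 40.2). In WT cerebellum of experiment 2, Slc17a7 was at 534 CPM in replicate 1 and Pou3f2 at 19.7 CPM in replicate 2.

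In experiment 1B, Mir7DKO replicate 2 was high for Nrgn (26.7 CPM against 1.44 to 1.59), Rasgrf2 (14.2 against 3.61 to 4.00) and Bcl11b (5.02 against 1.48 to 2.04), and CyrKO replicate 2 for Nrgn (7.07 against 1.19 to 1.73) and Camk2a (107 against 92.8 to 94.6). The others in this experiment were Rasgrf2 in WT replicate 3 (3.14 CPM) and CyrKO replicate 3 (5.76 CPM), Nr2f2 in WT replicate 1 (16.3 CPM), Bcl11a in Mir7DKO replicate 3 (17.0 CPM) and Neurod6 in CyrKO replicate 1 (8.29 CPM). In experiment 1A, Mef2c was low in CyrMut replicate 2 (57.6 CPM) and Foxp1 high in CyrMut replicate 4 (48.6 CPM).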

How the results depend on the processing

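Under every alternative run, 0 members passed in each mutant comparison and in the interaction, and 38 passed between the tissues. In cortex and between the tissues each member kept its direction where called and its side of the threshold. The counts over all genes moved more. With no filter on low counts the test called 48 genes in Mir7DKO cortex (6 with the filter), 184 in Mir7DKO cerebellum of experiment 2 (28), 4 in that of experiment 1B (1), 10 in CyrKO (3), 43 in CyrMut (1) and 74 in the interaction (23). DESeq2 called 3 genes in Mir7DKO of experiment 1B, 4 in CyrMut and 13 in the interaction. The striatal covariate gave 10 genes in cortex. Leaving out 1 library at a time gave 4 to 11 genes in cortex (11 without WT replicate 1), 3 to 70 in Mir7DKO cerebellum of experiment 2 (3 without WT replicate 1 or 2, 6 without WT replicate 4, 67 without Mir7DKO replicate 2, 70 without Mir7DKO replicate 3), 0 to 2 in that of experiment 1B (2 without Mir7DKO replicate 2 or 4, otherwise 0), 3 to 10 in CyrKO (10 without WT replicate 4), 1 to 17 in CyrMut (17 without CyrMut replicate 2), 10190 to 10446 between the tissues and 1 to 48 in the interaction (1 without WT cortex replicate 4 or Mir7DKO cortex replicate 2, 48 without Mir7DKO cerebellum replicate 3). The labels do not say what the replicate numbers mark, and whether they pair libraries is not known. Deviations of same-numbered libraries correlated at 0.05 to 0.11 in cortex and in no comparison at over 0.1 for every pair. In cortex, however, 3 of 3 Mir7DKO libraries correlated best with their own number. With the number as a replicate block the test called 19 genes in cortex and 2 in Mir7DKO of experiment 1B, and 0 members in either. Members under about 1 CPM in cerebellum are limited by depth.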
